A study of Mus musculus with 24 samples.

Results

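The response to lipopolysaccharide (LPS) was measured in mouse bone marrow-derived macrophages in which the mRNA of the co-repressor CtBP1 had been lowered with siRNA. It was taken from the 6 libraries that the sample titles label as Ctbp1 siRNA: 3 treated with LPS at 100 ng/ml for 4 h, and 3 given vehicle, which was PBS. They are 6 of the 24 RNA-seq libraries of the series and of its 18 libraries of bone marrow-derived macrophages. The other 12 of these 18 received Ctbp2 siRNA with LPS, Ctbp2 siRNA with vehicle, control siRNA with LPS or control siRNA with vehicle, 3 libraries each. These 12 served here to ask whether the response differed between siRNAs. The 6 libraries of the J774.1 line were not used. The mice were male, of strain C57BL6/N and 6 to 12 weeks old. Marrow was differentiated in medium conditioned by L929 cells, and the cells were then kept in serum-free macrophage medium. Every library, vehicle included, comes from cells that received an siRNA, so there is no untransfected baseline. The titles number the replicates 1, 3 and 4. The labels do not say whether these were separate animals or separate cultures of one pool, so the p-values measure the spread between these samples.

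LPS, from the outer membrane of Gram-negative bacteria, is bound by CD14 and then by the TLR4 and MD-2 receptor pair. Signalling through MyD88 releases NF-kB from its IkB inhibitors and activates AP-1, while signalling through TRIF activates IRF3 and the gene of interferon beta. Macrophages then switch from tissue upkeep to defence: cytokines and chemokines are transcribed, and many genes of resting macrophages are turned down. CtBP1 and CtBP2 are paralogous co-repressors that DNA-bound factors recruit together with histone deacetylases and demethylases. The question set by the design is which of these changes take place, and how strongly, when CtBP1 is depleted.

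Values are TPM, the length-corrected share of a gene in a library's RNA scaled to one fixed sum, so levels can be compared between genes but the sequencing depth is unknown. The target gene followed its labels. Ctbp1 stood at 56.0, 48.5 and 48.1 TPM with LPS, against 59.4, 55.5 and 57.1 TPM with vehicle, all in Ctbp1 siRNA cells, whereas each of the 6 control siRNA libraries lay between 117 and 143 TPM. With Ctbp1 siRNA the mRNA was thus lowered but not absent. Its paralog Ctbp2 measured 41.2, 42.2 and 44.8 TPM with LPS, against 57.7, 56.0 and 50.3 TPM with vehicle in Ctbp1 siRNA cells. Within each group the libraries were close, with correlations of log2 values between 0.987 and 0.991 over tested genes. Between 11671 and 11741 genes reached 1 TPM with LPS, against 12135 to 12159 with vehicle. The sum of 8 macrophage markers ran from 12500 to 14600 TPM with LPS and from 12500 to 13000 TPM with vehicle, and each of the 8 was above 1 TPM in both groups. The other marker lists were low. The 10 neutrophil markers summed to 80.1 to 134 TPM with LPS and 70.9 to 110 TPM with vehicle, led by S100a9, with Mpo, Elane and Ly6g near 0. The 8 dendritic cell markers with values, most of the sum being Itgax, ran from 126 to 172 TPM with LPS and from 123 to 134 TPM with vehicle, with Flt3, Xcr1 and Clec9a near 0. The 9 stromal markers summed to 4.96 to 7.26 TPM with LPS and 0.152 to 0.323 TPM with vehicle, and Pdgfrb, at a mean of 5.44 TPM with LPS and 0.0255 TPM with vehicle, held most of the sum with LPS, while Col3a1 was listed at 0 in both groups. The 6 lymphocyte markers with values reached at most 2.66 TPM with LPS and 4.88 TPM with vehicle. Mast cell markers reached at most 0.578 TPM with LPS and 1.17 TPM with vehicle, and of the red cell list the gene Klf1 alone had values, up to 0.0576 TPM. Among the other siRNA groups 1 library, control siRNA with LPS of replicate 4, stood apart from its group. Its median absolute log2 difference to the other control siRNA LPS libraries was 0.132 and 0.138, against 0.0769 between those.

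A gene was tested when it averaged at least 10 TPM over the 18 libraries, which 7918 genes did, and called where limma on log2(TPM + 1) gave a p under 0.05 after Benjamini-Hochberg adjustment. A log2 fold change is given with its SE from that fit, as LPS over vehicle, and on this scale it understates the change of genes near 0 TPM. "Rose" and "fell" are used of called genes alone.

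LPS changed most of the tested genes, which are themselves a part of the 22996 genes with deposited values. Of 7918 tested genes 5969 were called (75.4%), 1936 of them higher with LPS (24.5%) and 4033 lower (50.9%). Shares of members in the gene lists below are to be read against these backgrounds. At 2-fold or more, 559 genes rose (7.06%) and 703 fell (8.88%), and the rises were the larger ones: 75 genes rose by at least 4 log2 units and 3 fell by as much. There were 9 genes with an LPS mean of at least 100 TPM and a vehicle mean under 1 TPM. The 559 risen genes made up 15.0%, 14.8% and 14.6% of the TPM of the LPS libraries, against 2.51%, 2.55% and 2.58% in the vehicle libraries. The 703 fallen genes made up 1.78%, 1.82% and 1.85% with LPS, against 5.15%, 5.19% and 5.22% with vehicle. TPM has a fixed sum, and the median of all tested genes lay at -0.188 rather than 0. With median-of-ratios scaling of the same TPM the median was -0.00214 and the calls split evenly, 2844 higher (36%) and 2808 lower (35.6%) of 7891 genes past the same filter, so that 50.3% of calls were higher in place of 32.4%. Changes smaller than about this shift are therefore named below with the scaling on which they rest. The filter on the mean bears on these counts: 165 of the 559 risen genes had under 10 TPM with vehicle and 280 of the 703 fallen genes under 10 TPM with LPS, and such genes could pass it through one group. The authors' deposited table of the same comparison called 4332 of the 5969 genes called here, 4125 of them in the same direction, and 1259 of the 1262 genes changed at least 2-fold here in the same direction. In bulk RNA, fewer cells of a kind and less RNA per cell cannot be told apart.

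**Figure D1:**
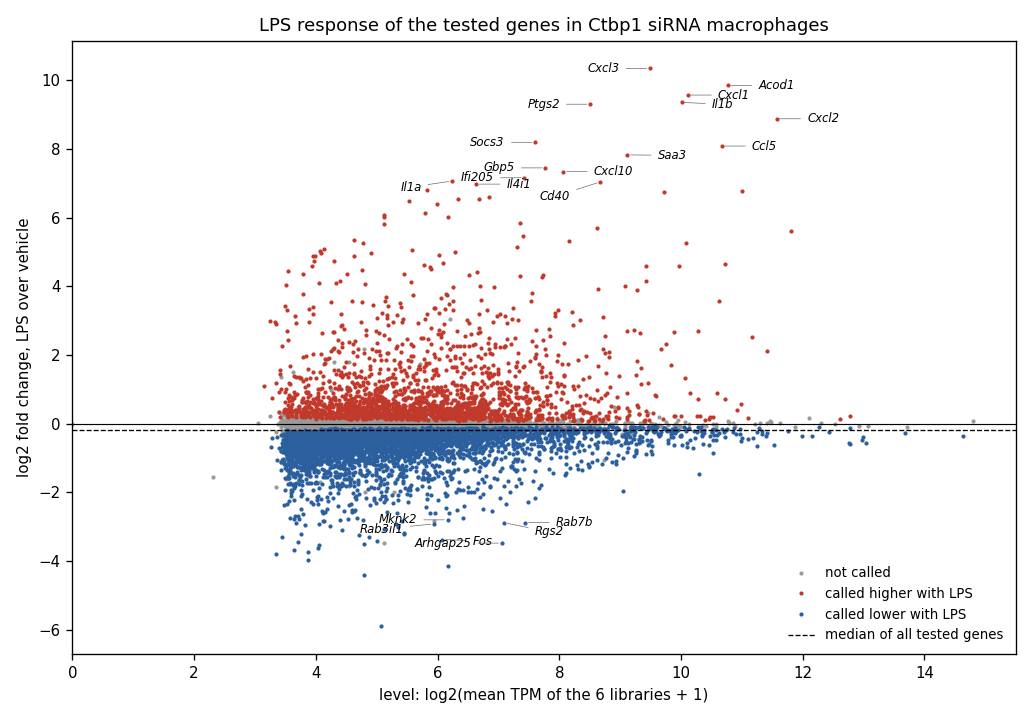
Each point is 1 of 7918 tested genes in Ctbp1 siRNA macrophages: its level (log2 of the mean TPM of the 6 libraries plus 1) against its log2 fold change, LPS over vehicle. The 15 largest rises of genes averaging at least 50 TPM reach from 6.98 (Il4i1) to 10.34 (Cxcl3), Arhgap25 lies at −3.48, and the dashed line marks the median of all genes. The lowest point, Mir8114, named after its values were seen, was listed at 0 in the 3 LPS libraries.

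Chemokines of the CXC group showed the highest list median. Each of the 5 tested members rose, by 2.01 to 10.34 log2 units, against a median of −0.19 over all genes, and 3 of the 5 had under 10 TPM with vehicle. Cxcl3, a neutrophil attractant, measured 1526, 1417 and 1365 TPM with LPS, against 0.122, 0 and 0.203 TPM with vehicle, with 1 vehicle library listed at 0. Cxcl1, which acts on the same receptor, measured 2331, 2230.0 and 2048 TPM with LPS, against 1.38, 2.43 and 1.98 TPM with vehicle. Cxcl2 became the most abundant of them, at 6099, 6286 and 5839 TPM with LPS, against 11.9, 13.5 and 10.4 TPM with vehicle. The groups did not overlap for any of these 3 genes, and the log2 fold changes were 10.34 ± 0.22, 9.57 ± 0.24 and 8.88 ± 0.18. Cxcl10, an attractant of T cells that interferon and NF-kB both induce, stood at 469, 583 and 545 TPM with LPS, against 1.72, 2.10 and 3.15 TPM with vehicle, a rise of 7.34 ± 0.31. Cxcl16, a transmembrane chemokine, rose by 2.01 ± 0.076. The 5 listed members too low to be tested averaged at most 3.73 TPM with LPS and 4.04 TPM with vehicle. Among them the interferon-induced Cxcl9 averaged 3.73 TPM with LPS and 0.145 TPM with vehicle.

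Promoters of 4 of these chemokine genes are printed because the genes moved together, and that of Ifit1 because it stands for the interferon-stimulated genes below. The sequences are RefSeq promoters of GRCm38.p6, the 250 bases before the annotated start, 5′ to 3′ on the gene's strand. Capitals mark matches on either strand to the kappa-B consensus of NF-kB, to the ISRE half-site pair GAAANNGAAA bound by interferon factors, and to the AP-1 site TGANTCA. The windows are chr5:90785851-90786100 (plus strand), chr5:90890995-90891244 (plus strand), chr5:90903649-90903898 (plus strand), chr5:92348890-92349139 (minus strand) and chr19:34640639-34640888 (plus strand).
Cxcl3: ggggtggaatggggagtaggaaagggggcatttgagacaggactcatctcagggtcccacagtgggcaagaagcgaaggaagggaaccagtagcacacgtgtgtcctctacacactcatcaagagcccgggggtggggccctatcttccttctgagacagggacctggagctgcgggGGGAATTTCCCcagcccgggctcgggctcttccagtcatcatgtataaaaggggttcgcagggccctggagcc
Cxcl1: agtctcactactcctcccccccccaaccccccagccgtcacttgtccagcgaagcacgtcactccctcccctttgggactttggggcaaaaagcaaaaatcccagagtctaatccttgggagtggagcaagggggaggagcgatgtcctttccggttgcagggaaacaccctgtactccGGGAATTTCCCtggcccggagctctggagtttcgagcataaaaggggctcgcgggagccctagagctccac
Cxcl2: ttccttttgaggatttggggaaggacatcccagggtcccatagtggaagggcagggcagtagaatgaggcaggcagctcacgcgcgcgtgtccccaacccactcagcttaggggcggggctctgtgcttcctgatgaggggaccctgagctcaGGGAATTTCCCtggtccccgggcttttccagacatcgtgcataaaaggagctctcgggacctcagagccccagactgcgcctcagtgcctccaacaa
Cxcl10: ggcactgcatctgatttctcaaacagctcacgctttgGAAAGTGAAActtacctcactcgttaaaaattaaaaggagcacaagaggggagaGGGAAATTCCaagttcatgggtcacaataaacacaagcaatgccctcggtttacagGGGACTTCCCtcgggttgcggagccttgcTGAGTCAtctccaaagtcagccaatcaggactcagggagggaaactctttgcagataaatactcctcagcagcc
Ifit1: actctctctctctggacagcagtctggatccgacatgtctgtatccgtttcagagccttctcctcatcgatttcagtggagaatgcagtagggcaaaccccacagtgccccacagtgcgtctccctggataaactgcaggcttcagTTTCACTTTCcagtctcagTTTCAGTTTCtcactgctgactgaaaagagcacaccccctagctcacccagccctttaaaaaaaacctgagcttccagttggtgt

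In Cxcl3, Cxcl1 and Cxcl2 the kappa-B match began 73, 71 and 97 bases before the start, and a match on the other strand overlapped it in each. Cxcl10 had an ISRE match 213 bases and kappa-B matches 159 and 103 bases before the start, as well as an AP-1 match at 74 bases. Ifit1 had a pair of ISRE matches, 104 and 85 bases before the start, on the other strand. Over all 32851 promoters 3.9% held the kappa-B consensus, 2.98% the ISRE letters and 6.75% the AP-1 letters. Over the 8003 promoters matched to tested genes the shares were 4.72%, 3.0% and 4.4%. Promoters were matched for 443 of the 559 genes that rose at least 2-fold, 581 promoters in all, and of these 11.7% held kappa-B, 6.02% the ISRE and 7.4% AP-1. For 559 of the 703 genes that fell at least 2-fold, with 771 promoters, the shares were 4.15%, 2.08% and 5.45%. For the 59 matched genes among the 75 with a rise of at least 4 log2 units, with 69 promoters, 20.3% held kappa-B and 15.9% AP-1. Of the 10 listed CXC chemokine genes 7 were matched, with 7 promoters. Of these 4 held kappa-B, and they are the 4 printed, so no CXC promoter without a match is shown. Matches describe letters in these windows, not binding, and the shares were not tested.

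Of the CC chemokines 8 of 9 tested members rose, with a list median of 3.35. Ccl5, an attractant of T cells and monocytes, measured 3553, 2959.9 and 3197 TPM with LPS, against 10.0, 9.82 and 13.1 TPM with vehicle. Ccl3, which draws monocytes and neutrophils, measured 6632, 8162 and 6301 TPM with LPS, against 142, 140.2 and 141 TPM with vehicle and was the one chemokine among the 10 most abundant mRNAs of the LPS libraries. Its near neighbour in function Ccl4 stood at 3103, 3801 and 2898 TPM with LPS, against 129, 137 and 118 TPM with vehicle. For all 3 the lowest LPS library was more than 20 times the highest vehicle library. The monocyte attractants Ccl2 and Ccl7 rose less, by 1.35 ± 0.17 and 1.55 ± 0.23, and Ccl2 averaged 301 ± 57.4 TPM with LPS and 116 ± 11.9 TPM with vehicle (SD, n = 3 each). Ccl6 did not pass, at 499 TPM with LPS and 475 TPM with vehicle (log2 fold change 0.07 ± 0.089, adjusted p = 0.482), and was called higher, as the ninth of 9, with median-of-ratios scaling. Ccl17, a ligand of CCR4, was below the filter, at 7.94, 21.1 and 9.07 TPM with LPS and listed at 0 in the 3 vehicle libraries.

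Among 22 cytokine genes, 14 were tested and 12 of these rose, with none called lower and a median of 4.79, although 8 of the 14 had under 10 TPM with vehicle. Tnf, the gene of tumour necrosis factor, was the most abundant at 4041, 4081 and 4042 TPM with LPS, against 34.2, 37.0 and 36.6 TPM with vehicle, a log2 fold change of 6.78 ± 0.11. Il1b, whose product needs inflammasome cleavage, measured 2023, 2336 and 1808 TPM with LPS, against 2.02, 1.57 and 2.92 TPM with vehicle and rose by 9.36 ± 0.26. Its relative Il1a measured 143, 202 and 101 TPM with LPS, against 0.0998, 0.0416 and 0.0831 TPM with vehicle, and within the LPS group replicate 3 was highest and replicate 4 lowest. Il6, a driver of the acute phase response, measured 109.8, 120.1 and 105 TPM with LPS and was listed at 0 in each vehicle library, so no fold is given. The same held for Il12b, the p40 subunit of IL-12 and IL-23, at 62.7, 71.8 and 67.0 TPM with LPS, and for the growth factor gene Csf2, at 24.0, 41.6 and 23.8 TPM with LPS. Of the IL-27 subunits, Il27 rose by 6.54 ± 0.18 and Ebi3 by 2.17 ± 0.10. Il15, Il18 and the macrophage growth factor gene Csf1 rose by 2.29 ± 0.11, 1.44 ± 0.10 and 3.58 ± 0.14. The antagonist gene Il1rn was not called, at 239 TPM with LPS and 214 TPM with vehicle (0.16 ± 0.11, adjusted p = 0.193), nor was Tgfb1, at 359.9 TPM with LPS and 371 TPM with vehicle (−0.043 ± 0.05). Both were called higher with median-of-ratios scaling, at 0.35 and 0.14. The 8 cytokine genes below the filter averaged at most 9.90 TPM with LPS and 4.17 TPM with vehicle. Among these was Il10, the main anti-inflammatory cytokine of macrophages, at 3.02, 3.21 and 2.90 TPM with LPS, against 4.36, 3.08 and 4.40 TPM with vehicle, where the groups overlapped. Together the 43 cytokine and chemokine genes took 3.73%, 4.0% and 3.52% of the TPM of the LPS libraries, against 0.276%, 0.287% and 0.273% with vehicle.

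**Figure D2:**
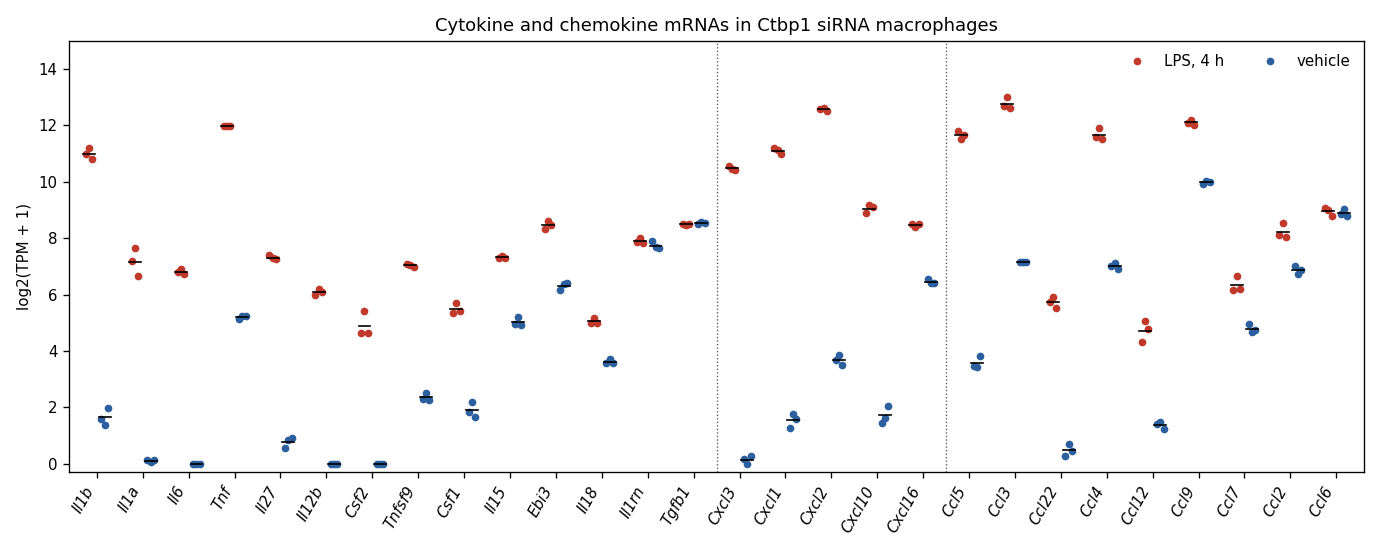
Level of each tested cytokine (left), CXC chemokine (middle) and CC chemokine (right) in every library, as log2(TPM + 1), with LPS in red to the left of vehicle in blue and a bar at each group mean (n = 3 each). Points of the groups overlap for Tgfb1, Il1rn and Ccl6, and Il6, Il12b and Csf2 sit at 0 with vehicle.

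The receptor side moved in both directions. Cd14, which hands LPS to the receptor, measured 1613, 1700.1 and 1596 TPM with LPS, against 279, 262 and 231 TPM with vehicle and rose by 2.67 ± 0.085. Tlr4 itself fell, with 23.6, 26.8 and 26.3 TPM with LPS, against 41.9, 45.7 and 46.0 TPM with vehicle and a log2 fold change of −0.78 ± 0.10. The related pair Cd180 and Ly86 fell (−0.72 ± 0.045 and −0.74 ± 0.095), while Ly96, the gene of MD-2, averaged 42.7 TPM with LPS and 36.6 TPM with vehicle and was not called on TPM but was called higher, at 0.40, with median-of-ratios scaling. Of 7 other Toll-like receptors tested, 3 rose and 3 fell. Tlr2, the receptor of bacterial lipopeptides, and its partners Tlr1 and Tlr6 rose by 3.38 ± 0.063, 2.22 ± 0.078 and 1.23 ± 0.079. Tlr13, which senses bacterial ribosomal RNA in mice, fell (−1.34 ± 0.063). The falls of Tlr7 (−0.25 ± 0.087) and Tlr8 (−0.33 ± 0.088) were not called with median-of-ratios scaling. Tlr9 was below the filter, at 3.04, 2.69 and 3.47 TPM with LPS, against 11.1, 9.36 and 12.8 TPM with vehicle.

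Below the receptor, 17 of 20 tested adaptor and kinase genes rose and 3 fell, against 24.5% and 50.9% of all genes, with a median of 0.59. The largest rises were those of the kinase genes Ripk2 (3.24 ± 0.077), Ikbke (2.56 ± 0.071) and Irak2 (2.46 ± 0.071), and of Irak3 (2.31 ± 0.079), whose product restrains the pathway. Myd88, the shared adaptor, averaged 139 ± 4.85 TPM with LPS and 67.2 ± 1.27 TPM with vehicle (SD, n = 3 each), a rise of 1.04 ± 0.048. Irak4, Ripk1 and Irak1, which act early in the pathway, fell (−0.58 ± 0.069, −0.40 ± 0.043 and −0.34 ± 0.065). The same 17 and 3 were the counts with median-of-ratios scaling.

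Each of the 11 genes of NF-kB subunits and IkB proteins rose, 10 of them at least 2-fold, with a median of 2.50. Nfkbia, the classic IkB and an NF-kB target, measured 1016, 1028 and 1004 TPM with LPS, against 60.3, 61.5 and 63.6 TPM with vehicle, a rise of 4.02 ± 0.055. Nfkbiz, an atypical IkB needed for secondary response genes such as Il6, measured 309.7, 289 and 323 TPM with LPS, against 7.98, 7.33 and 7.90 TPM with vehicle and rose by 5.14 ± 0.074. The precursor genes Nfkb1 and Nfkb2 rose by 2.44 ± 0.062 and 3.23 ± 0.059, and Rel, Relb and Rela by 2.50 ± 0.063, 2.26 ± 0.044 and 1.22 ± 0.064. The smallest rise was that of Nfkbid, 0.50 ± 0.068. Promoters were matched for 8 of these 11 genes, and 7 of their 12 promoters held the kappa-B consensus.

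Brakes on signalling rose alongside. Of 19 tested feedback regulators, 14 rose and 4 fell, with a median of 1.92, and 6 had under 10 TPM with vehicle. Socs3, an inhibitor of JAK signalling, measured 381, 411 and 369 TPM with LPS, against 0.326, 0.306 and 0.339 TPM with vehicle, a rise of 8.19 ± 0.10. Tnfaip3, the gene of the ubiquitin editing enzyme A20, measured 402, 407 and 393 TPM with LPS, against 20.1, 18.2 and 20.6 TPM with vehicle and rose by 4.29 ± 0.10. The ribonuclease genes Zc3h12c and Zc3h12a rose by 3.77 ± 0.06 and 2.55 ± 0.064, and Zfp36, whose product speeds decay of cytokine mRNAs, by 1.92 ± 0.057. Its family members Zfp36l1 and Zfp36l2 went the other way, with log2 fold changes of −2.29 ± 0.18 and −2.33 ± 0.094. Zfp36l2 measured 45.5, 42.2 and 48.6 TPM with LPS, against 234, 230.1 and 234 TPM with vehicle, so the paralogs diverged beyond the spread of the libraries. Among dual-specificity phosphatases, Dusp2 rose by 5.06 ± 0.11 and Dusp16 by 1.93 ± 0.15, whereas Dusp1, an early response gene, fell (−0.73 ± 0.068). Socs1 was under the filter but separated, at 11.2, 13.6 and 10.9 TPM with LPS, against 0.649, 0.723 and 0.645 TPM with vehicle.

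Immediate early genes were mixed at this time. Of 16 tested, 9 rose and 6 fell, the same numbers with median-of-ratios scaling. Maff, Ier3 and Batf rose by 4.46 ± 0.13, 3.70 ± 0.15 and 3.05 ± 0.13, and Junb and Jund by 1.39 ± 0.053 and 0.99 ± 0.04. Fos, the founding AP-1 subunit, measured 9.47, 10.1 and 13.5 TPM with LPS, against 127, 118 and 121 TPM with vehicle, a log2 fold change of −3.37 ± 0.24 and one of the 15 largest. Jun fell (−1.81 ± 0.10), Klf2 (−1.26 ± 0.18) and Atf3 (−0.64 ± 0.043). Egr1 was below the filter and averaged 1.50 TPM with LPS and 1.41 TPM with vehicle.

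Interferon-stimulated genes rose broadly. Of 39 tested members 34 rose and 2 fell, with a median of 1.42, and 21 of the 34 rose at least 2-fold. Ifnb1, the gene of interferon beta, was itself too low to be tested, at 0.432, 1.77 and 1.20 TPM with LPS, and was listed at 0 with vehicle. The GTPase gene Gbp5 measured 466, 396 and 436 TPM with LPS, against 1.63, 1.09 and 1.77 TPM with vehicle, a rise of 7.45 ± 0.15, and Gbp2 and Gbp3 rose by 4.29 ± 0.12 and 3.76 ± 0.13. Ifi205, of the DNA-binding p200 family, rose by 7.16 ± 0.15. Members of that family are close copies, so its reads may be shared. Ifit1 measured 189, 205 and 213 TPM with LPS, against 21.4, 16.9 and 20.8 TPM with vehicle, Rsad2, the antiviral enzyme viperin, 207, 252 and 246 TPM with LPS, against 24.7, 22.9 and 26.5 TPM with vehicle, and Isg15 456, 469.6 and 453 TPM with LPS, against 49.1, 37.5 and 49.2 TPM with vehicle. These 3 rose by 3.30 ± 0.16, 3.20 ± 0.16 and 3.33 ± 0.14. The OAS genes differed from these: Oas3 fell (−0.53 ± 0.13), Oas2 (−0.28 ± 0.092) with TPM but without a call on median-of-ratios scaling, whereas the OAS-like Oasl1 rose by 3.34 ± 0.21. Promoters were matched for 31 of the 42 listed genes, and 17 of their 36 promoters held the ISRE letters.

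Of 13 tested IRF and STAT genes, which drive the genes above, 3 rose and 3 fell, with a median of −0.024. Irf1 measured 553, 508 and 544 TPM with LPS, against 52.3, 55.0 and 59.4 TPM with vehicle, a rise of 3.25 ± 0.06, and Stat5a rose by 2.06 ± 0.12. Irf8, a factor of macrophage development, measured 34.4, 28.8 and 29.8 TPM with LPS, against 123, 125 and 126 TPM with vehicle, a log2 fold change of −1.97 ± 0.065 with no overlap. Irf9, a factor that interferon activates, was not called, at 49.7 TPM with LPS and 51.7 TPM with vehicle (−0.057 ± 0.059, adjusted p = 0.391), and its partner Stat2 rose by 0.36 ± 0.095. With median-of-ratios scaling 7 of the 13 were called higher and 3 lower.

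Effector genes held some of the largest rises. Of 25 tested, 20 rose and 4 fell, and 10 had under 10 TPM with vehicle. Acod1, whose enzyme makes itaconate from a citric acid cycle intermediate, measured 3604, 3368 and 3486 TPM with LPS, against 2.64, 3.07 and 2.64 TPM with vehicle, a rise of 9.85 ± 0.086. Ptgs2, the inducible cyclooxygenase, measured 777, 746 and 653 TPM with LPS, against 0.145, 0.0994 and 0.199 TPM with vehicle, and Ptges, which acts after it to make prostaglandin E2, rose by 4.61 ± 0.16. Nos2, the inducible nitric oxide synthase, stayed modest at 28.2, 32.7 and 26.0 TPM with LPS, against 0.0243, 0 and 0.0204 TPM with vehicle. Saa3, an acute phase protein gene, averaged 1105 ± 186 TPM with LPS and 3.83 ± 0.235 TPM with vehicle (SD, n = 3 each). Sod2 and C3 rose by 3.90 ± 0.069 and 3.98 ± 0.083. Plau and Alox5ap, for urokinase and for the helper of leukotriene synthesis, fell (−1.66 ± 0.13 and −0.82 ± 0.046), and Vegfa (−1.76 ± 0.15). Hmox1 was not called, at 848 TPM with LPS and 739 TPM with vehicle (0.19 ± 0.11, adjusted p = 0.131), but was called higher with median-of-ratios scaling, at 0.37. Il4i1, an amino acid oxidase gene outside the lists, was among the 15 largest rises, at 6.98 ± 0.18.

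Of 25 tested genes of inflammasomes and cell death 14 rose and 6 fell. Nlrp3, the sensor limiting for inflammasome assembly, measured 559.7, 559.6 and 549 TPM with LPS, against 12.7, 12.9 and 13.6 TPM with vehicle, a rise of 5.31 ± 0.075. The adaptor gene Pycard fell (−0.84 ± 0.086) and the sensor gene Nlrp1b (−2.47 ± 0.12), while Casp4 and Casp1 rose by 2.07 ± 0.041 and 0.82 ± 0.036. The survival genes Bcl2a1a, Bcl2a1b and Bcl2a1d rose by 6.53 ± 0.19, 4.61 ± 0.076 and 5.70 ± 0.11, but they are near-identical copies whose reads cannot be assigned with certainty. Cflar, an inhibitor of caspase-8, rose by 2.75 ± 0.058, and Casp8 and Ripk3 fell (−0.43 ± 0.054 and −0.64 ± 0.10).

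Antigen presentation rose in part. Of 17 class I genes 13 rose, 6 of them at least 2-fold, led by H2-Q7 (2.36 ± 0.089) and the proteasome activator gene Psme2 (1.94 ± 0.067). On TPM 1 was called lower, and none with median-of-ratios scaling. H2 genes share stretches of sequence, so reads may be split between them. Among class II and co-stimulatory genes, 9 of 12 rose and 2 fell. Cd40, a receptor for help from T cells, averaged 811 ± 7.98 TPM with LPS and 5.18 ± 0.533 TPM with vehicle (SD, n = 3 each) and rose by 7.04 ± 0.16, and Icam1, an adhesion ligand, rose by 5.27 ± 0.078. Icosl, Cd83 and Cd274, the last the gene of PD-L1, rose by 4.14 ± 0.07, 2.78 ± 0.058 and 2.33 ± 0.089. Cd86 stayed under the filter, at 3.18, 3.20 and 4.04 TPM with LPS, against 4.42, 4.09 and 4.30 TPM with vehicle.

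**Figure D3:**
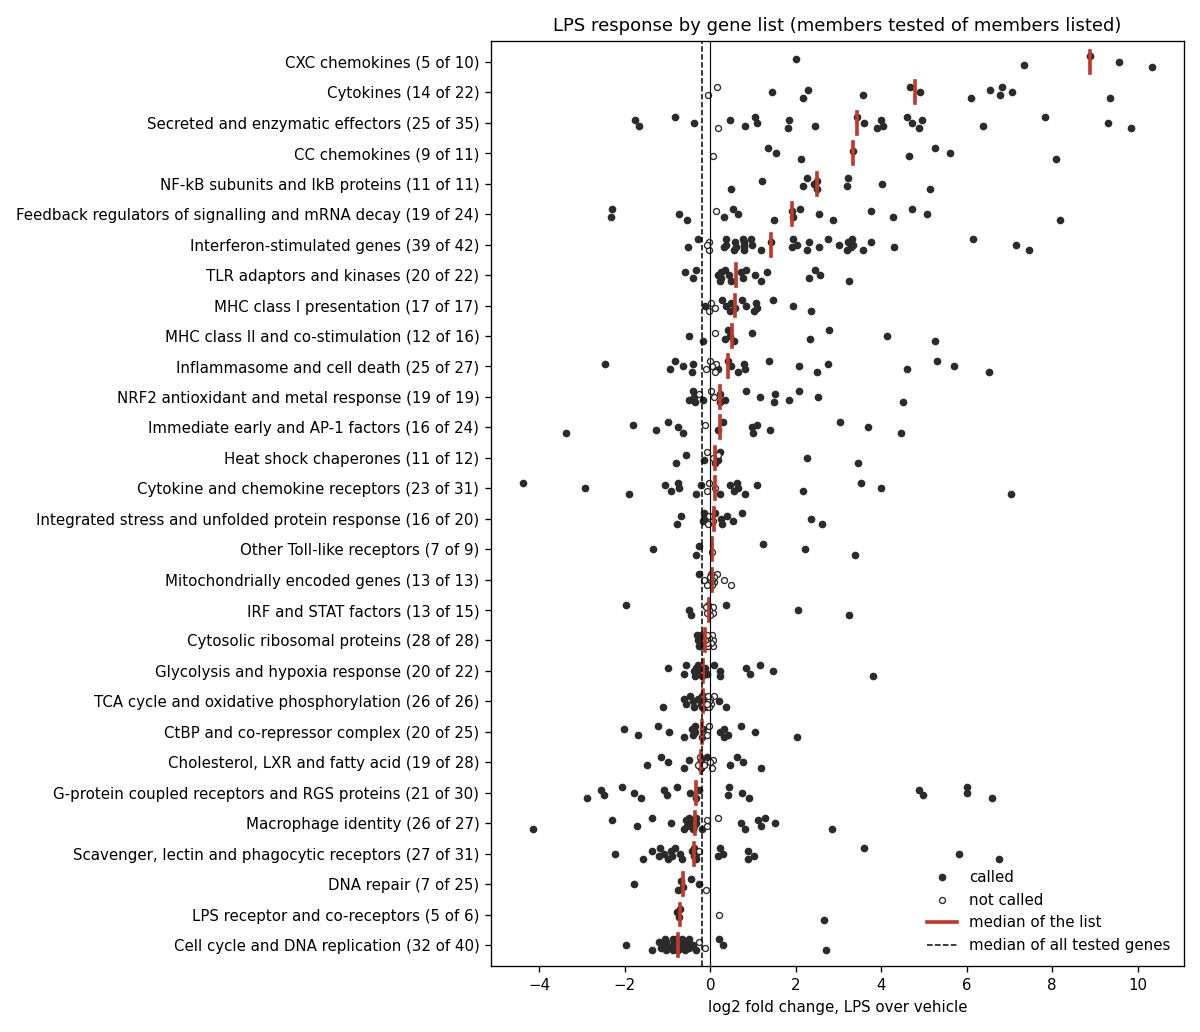
Each row is a gene list, with the number of members tested of those listed, and each circle a tested member at its log2 fold change, LPS over vehicle, filled when called. Red bars mark list medians, from 8.88 for CXC chemokines down to −0.76 for cell cycle genes, and the dashed line marks the median of all tested genes at −0.19.

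Macrophage identity genes moved in both directions. Of 26 tested, 7 rose and 16 fell, beside 24.5% and 50.9% of all tested genes. Of these falls 14 were called with median-of-ratios scaling too, and 5 genes of the list rose and 4 fell at least 2-fold. The list median of −0.35 lay beside −0.19 over all tested genes. Pparg, a nuclear receptor of lipid-handling macrophages, measured 8.81, 10.4 and 9.94 TPM with LPS, against 54.1, 50.5 and 51.1 TPM with vehicle, a log2 fold change of −2.31 ± 0.10 with no overlap. The transcription factor genes Maf (−0.91 ± 0.086) and Cebpa (−1.71 ± 0.12) and the lysosome regulator gene Tfeb (−1.36 ± 0.12) fell. Spi1, the gene of PU.1, rose by 1.18 ± 0.038, as did Cebpb (1.51 ± 0.048) and Cebpd (2.85 ± 0.082). Among abundant mRNAs Gpnmb, a glycoprotein gene, fell and averaged 5627 ± 88.0 TPM with LPS and 8244 ± 119 TPM with vehicle, and Ctsd, the gene of cathepsin D, fell and averaged 6766 ± 140.2 TPM with LPS and 9381 ± 144 TPM with vehicle (SD, n = 3 each). Lyz2, the macrophage lysozyme gene, was not called, at 7578 TPM with LPS and 7901 TPM with vehicle (−0.069 ± 0.083, adjusted p = 0.456). Adgre1, which encodes F4/80, rose by 0.73 ± 0.073.

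Among receptors for particles and debris, 9 of 27 tested members rose and 17 fell, 4 and 6 of them at least 2-fold on TPM, and 6 and 4 with median-of-ratios scaling. Clec4e, the lectin Mincle, measured 1729.8, 1755 and 1522 TPM with LPS, against 15.2, 18.3 and 10.7 TPM with vehicle, a rise of 6.76 ± 0.19, and the scavenger receptor genes Marco and Msr1 rose by 5.83 ± 0.24 and 0.88 ± 0.048. Mertk, a receptor for apoptotic cells, fell (−2.23 ± 0.18), and the scavenger receptor genes Stab1 and Lrp1 (−1.37 ± 0.12 and −1.18 ± 0.077). Fc receptors moved in both directions. Fcgr2b, the inhibitory one, measured 367, 358 and 298 TPM with LPS, against 24.7, 28.2 and 29.4 TPM with vehicle, a rise of 3.59 ± 0.15, whereas the activating Fcgr1, Fcgr3 and Fcgr4 fell (−1.58 ± 0.14, −0.99 ± 0.04 and −0.93 ± 0.081).

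Cytokine and chemokine receptors had 11 rises and 9 falls among 23 tested. Cxcr4, the receptor that holds cells in the marrow, measured 1.50, 1.42 and 1.60 TPM with LPS, against 55.7, 47.6 and 51.8 TPM with vehicle, a log2 fold change of −4.39 ± 0.15. Both chains of the IL-6 receptor fell, Il6ra (−2.94 ± 0.15) and Il6st (−1.90 ± 0.11), in the libraries in which Il6 appeared. Ccr1, a receptor for Ccl3 and Ccl5, fell (−1.05 ± 0.13). The TNF receptor genes differed: Tnfrsf1b rose by 2.17 ± 0.051, and Tnfrsf1a fell (−0.22 ± 0.055) on TPM but was not called with median-of-ratios scaling. Fas and Ccrl2 rose by 3.52 ± 0.10 and 4.00 ± 0.12.

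Receptors coupled to G proteins, and their RGS regulators, gave 9 rises and 12 falls among 21 tested. The formyl peptide receptor genes Fpr1 and Fpr2 rose by 4.88 ± 0.17 and 6.02 ± 0.14, Gpr84 by 6.59 ± 0.078, and the adenosine receptor gene Adora2a by 6.00 ± 0.11. Adora2a measured 73.2, 66.6 and 63.6 TPM with LPS, against 0.0343, 0.185 and 0 TPM with vehicle. The nucleotide receptor genes P2ry6 and P2rx7 fell (−2.49 ± 0.12 and −2.06 ± 0.13). Rgs2, an inhibitor of Gq signalling, measured 32.1, 30.2 and 32.8 TPM with LPS, against 237, 242 and 242 TPM with vehicle, a log2 fold change of −2.88 ± 0.082, and Rgs14, Rgs18 and Rgs1 fell (−1.78 ± 0.083, −1.61 ± 0.12 and −1.09 ± 0.10).

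The 15 largest falls of genes averaging at least 50 TPM over the 6 libraries, 13 of which are given here, held several outside these groups. Arhgap25, a Rac GTPase-activating protein of phagocytes, measured 19.2, 20.4 and 23.4 TPM with LPS, against 237, 245 and 248 TPM with vehicle, a log2 fold change of −3.48 ± 0.11. Rab7b, a late endosomal GTPase, measured 38.5, 37.7 and 46.3 TPM with LPS, against 305, 298 and 312 TPM with vehicle and fell (−2.88 ± 0.11), and Rab3il1, an exchange factor gene for Rab proteins, fell (−2.92 ± 0.059). Mknk2, a kinase of the translation factor eIF4E, fell (−2.80 ± 0.10), as did the ceramide kinase gene Cerk (−2.61 ± 0.084) and the pyridoxal kinase gene Pdxk (−2.55 ± 0.12). Lhfpl2, Angptl2, Arl11 and Hip1 fell (−2.73 ± 0.15, −2.59 ± 0.078, −2.59 ± 0.10 and −2.44 ± 0.12). For each of these 13 genes every LPS library lay below every vehicle library, which the rule for naming them asked for.

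**Figure D4:**
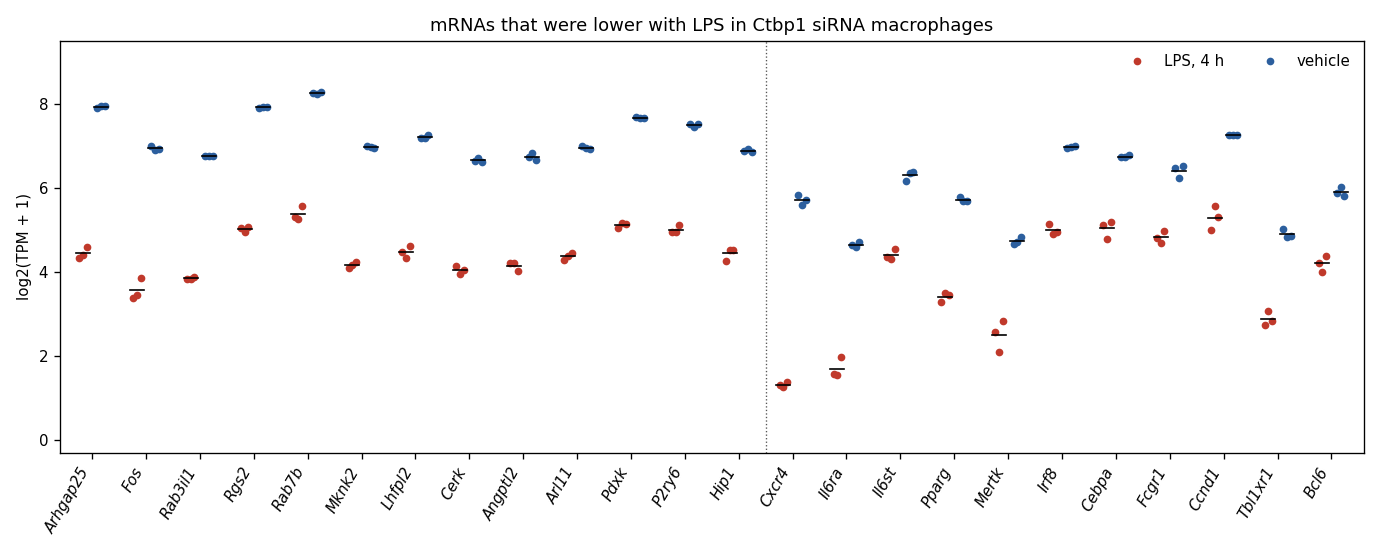
Level in every library, as log2(TPM + 1), of 13 of the 15 genes with the largest falls (left of the dotted line) and of 11 further list members that fell (right of it), with LPS in red to the left of vehicle in blue and a bar at each group mean (n = 3 each). Arhgap25 lies at −3.48 and Cxcr4 at −4.39 log2 units.

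Proliferation genes fell as a group. Of 32 tested cell cycle and replication genes 27 fell and 3 rose, with a median of −0.76, and 25 falls were called with median-of-ratios scaling. Ccnd1, the gene of cyclin D1, measured 31.1, 46.2 and 38.9 TPM with LPS, against 153, 153 and 153 TPM with vehicle, a log2 fold change of −1.98 ± 0.16. The helicase genes Mcm2 and Mcm6 fell (−1.35 ± 0.12 and −1.07 ± 0.11), Rrm2 (−1.20 ± 0.13) and Pcna (−0.86 ± 0.036). Cdkn1a, the cell cycle inhibitor p21, measured 2235, 2033 and 2180.2 TPM with LPS, against 333, 329 and 327 TPM with vehicle and rose by 2.70 ± 0.087. Mki67 rose by 0.20 ± 0.068, against the direction of most of the list. Of 25 DNA repair genes 7 reached the filter, of which 6 fell, and the other 18 averaged at most 7.54 TPM with LPS and 10.9 TPM with vehicle.

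Of 20 tested glycolysis and hypoxia genes 3 rose and none fell at least 2-fold. Of 26 citric acid cycle and respiratory chain genes none rose and 1 fell as much. Of 19 cholesterol, LXR and fatty acid genes 1 rose and 2 fell as much. Over all tested genes the shares were 7.06% and 8.88%. Glucose transporter genes rose, Slc2a6 by 3.82 ± 0.094 and Slc2a1 by 1.48 ± 0.052, and so did Hif1a (0.94 ± 0.048) and Pfkl (1.16 ± 0.11). The glycolysis and hypoxia list depended on the scaling: 8 of 20 tested members rose and 12 fell on TPM, against 9 and 7 with median-of-ratios scaling. Of 26 genes of the citric acid cycle and respiratory chain 2 rose and 17 fell on TPM, against 8 and 7 with median-of-ratios scaling. Idh1 had the largest fall of these, −1.12 ± 0.054, and Idh2 fell (−0.61 ± 0.077). Of 19 tested cholesterol, LXR and fatty acid genes 4 rose and 9 fell on TPM, against 7 and 5 with median-of-ratios scaling. The lipid droplet gene Plin2 and the cholesterol exporter gene Abcg1 fell (−1.47 ± 0.082 and −1.15 ± 0.086). Of 28 cytosolic ribosomal protein genes 18 were called lower on TPM and 1 with median-of-ratios scaling, which called 9 higher. The 13 mitochondrially encoded genes had 1 call on TPM, lower, and 8 calls with median-of-ratios scaling, all higher.

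Of 19 antioxidant and metal response genes 11 rose and 5 fell. Slc7a11, the cystine importer, measured 130.0, 90.7 and 116 TPM with LPS, against 3.44, 4.70 and 3.70 TPM with vehicle, a rise of 4.51 ± 0.14, and Sqstm1, Txnrd1 and the regulator gene Nfe2l2 rose by 2.52 ± 0.043, 1.84 ± 0.061 and 1.49 ± 0.047. The metallothionein genes diverged, with Mt2 at 1.51 ± 0.12 and Mt1 at −0.49 ± 0.052. The stress lists were mixed on TPM, and fewer of their members were called lower with median-of-ratios scaling. Of 16 unfolded protein and integrated stress genes 8 rose and 5 fell on TPM, with a median of 0.082. With median-of-ratios scaling 10 were called higher and 2 lower, with a median of 0.27. The rises were led by Ppp1r15a (2.61 ± 0.11) and Herpud1 (2.35 ± 0.06). Of 11 heat shock genes 5 rose and 3 fell on TPM, with a median of 0.12, against 7 and 2 with median-of-ratios scaling. Their rises were led by Hspa1b (3.45 ± 0.091) and its close copy Hspa1a (2.26 ± 0.12).

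The co-repressor machinery that CtBP1 works with had counts near those of all tested genes. Of 20 tested members 7 rose and 11 fell, 8 and 8 with median-of-ratios scaling, and the list median of −0.18 lay beside −0.19 over all genes. Ctbp1 was called lower at −0.17 ± 0.065 on TPM but lay at 0.01 with median-of-ratios scaling, with overlapping groups. Ctbp2 was called lower at −0.35 ± 0.087 on TPM and, at −0.16, not called with median-of-ratios scaling. Tbl1xr1, a component of nuclear receptor co-repressor complexes, measured 5.72, 7.44 and 6.13 TPM with LPS, against 31.4, 27.4 and 28.2 TPM with vehicle, a log2 fold change of −2.02 ± 0.14 with no overlap. Bcl6, a repressor that recruits such complexes, fell (−1.69 ± 0.17). Klf3 and Zeb2, DNA-bound partners of CtBP proteins, rose by 1.05 ± 0.084 and 0.71 ± 0.047, and Ikzf1, which also binds CtBP, by 2.02 ± 0.059. Kdm1a and Hdac1, enzymes of the complex, rose by 0.22 ± 0.051 and 0.32 ± 0.047.

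The response with Ctbp1 siRNA was then set against the responses with Ctbp2 siRNA and with control siRNA, as a difference of log2 fold changes in the same fit. The 3 responses share no library. Of 7918 genes 1 was called as different from control siRNA (0.0126%), and 520 had an unadjusted p under 0.05. It was Rps12, a ribosomal protein gene, which measured 931, 952 and 894 TPM with LPS, against 972, 919.6 and 968 TPM with vehicle in Ctbp1 siRNA cells and averaged 769.6 ± 30.9 TPM with LPS and 1083 ± 35.7 TPM with vehicle in control siRNA cells (SD, n = 3 each). The difference of log2 responses was 0.45 ± 0.068 (adjusted p = 0.0412). Rps12 has close copies elsewhere in the genome, so its reads may be shared, and the call did not hold with median-of-ratios scaling (adjusted p = 0.0556), with the replicate block (adjusted p = 0.0509) or when any library of the comparison other than control siRNA LPS replicate 4 was left out. Over the alternatives the adjusted p ran from 0.0275 to 0.2 and the difference from 0.416 to 0.477. Against Ctbp2 siRNA no gene was called (0%) by limma, and 731 had an unadjusted p under 0.05. The interval of a typical gene's difference reached 0.228 log2 units to either side in both comparisons. Differences under 0.5 log2 units were seen for 98.6% of genes against control siRNA and 98.4% against Ctbp2 siRNA.

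None of the genes next nearest to a call was called. Against control siRNA Reep5 and Rac2 were among the 3 smallest p-values of lower responses, with differences of −0.36 ± 0.074 and −0.44 ± 0.10 (adjusted p = 0.144 and 0.216). Among higher ones they were, after Rps12, Slc15a4 and mt-Cytb, with 0.61 ± 0.12 and 0.28 ± 0.057 (adjusted p = 0.144 and 0.144). Slc15a4 carries histidine and peptides out of endolysosomes and serves Toll-like receptor signalling there. Against Ctbp2 siRNA the higher ones were Tor3a, Xaf1 and Ifit2, with 0.41 ± 0.078, 0.54 ± 0.11 and 1.00 ± 0.19, and the lower ones Rnd1, Rab14 and Pcdh7, with −1.22 ± 0.25, −0.23 ± 0.049 and −0.28 ± 0.061, each with an adjusted p of at least 0.295. Ifit2 rose by 1.90 ± 0.14 in Ctbp1 siRNA cells, beside 0.90 with Ctbp2 siRNA and 2.27 with control siRNA.

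Against Ctbp2 siRNA the differences of cytokine and of interferon-stimulated genes leaned in opposite directions, without a call. Of the 14 tested cytokine genes 11 had a difference below 0, Ctbp1 siRNA minus Ctbp2 siRNA, with a median of −0.36, and of the 39 interferon-stimulated genes 34 had a difference above 0, with a median of 0.29. Over all tested genes 35.4% had a difference below 0 and the median was 0.043. Leans were not particular to these lists. Above 0 lay 28 of 32 cell cycle genes, 23 of 26 macrophage identity genes and 14 of 17 class I genes. Against control siRNA the same medians were 0.0055 for cytokines and −0.21 for interferon-stimulated genes, with 0.019 over all genes. There 7 of the 14 cytokine genes and 36 of the 39 interferon-stimulated genes had a difference below 0, against 42.9% of all tested genes. Also against control siRNA, 17 of 19 antioxidant and metal response genes lay below 0 and 16 of 19 feedback regulators above 0. Of the 13 mitochondrially encoded genes 11, mt-Cytb among them, lay above 0 and 2 below in that comparison, with a median of 0.20. Members of a list are not independent, and these leans were not tested. For single genes, Tnf differed by −0.46 ± 0.16 from Ctbp2 siRNA (95% interval −0.79 to −0.12, adjusted p = 0.427) and by −0.017 ± 0.16 from control siRNA (−0.35 to 0.32, adjusted p = 0.997). Il1b differed by −0.52 ± 0.37 (−1.31 to 0.28) and −0.0031 ± 0.37 (−0.79 to 0.79), and Cxcl10 by −0.29 ± 0.44 (−1.25 to 0.67) and −0.00096 ± 0.44 (−0.96 to 0.96), the first value of each against Ctbp2 siRNA and the second against control siRNA. A p that misses the threshold does not show that the responses were the same, and these intervals give what the data allow. Without the control siRNA LPS library of replicate 4, which enters the Ctbp2 siRNA comparison through the shared estimate of spread alone, 12 genes were called against Ctbp2 siRNA, among them Tnf (−0.458), Il6 (−0.595) and Il12b (−1.01) with smaller responses and Ifit2 and Xaf1 with larger ones. Likewise 9 were called against control siRNA, among them Il6 (−0.835) and Rps12 (0.464).

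**Figure D5:**
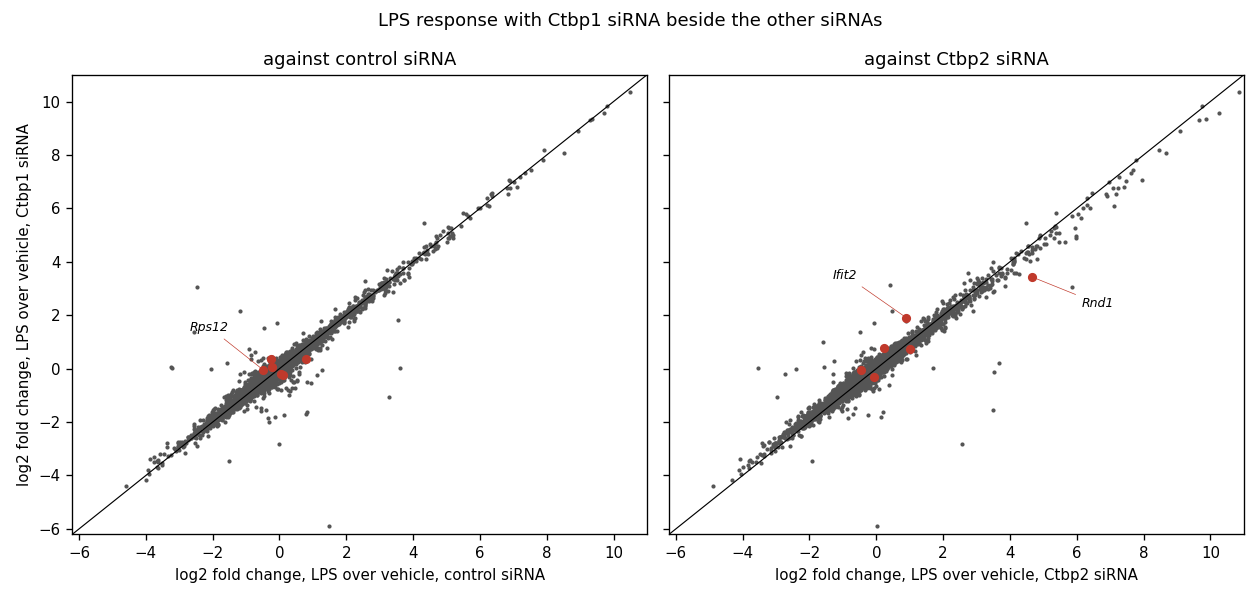
Each point is 1 of 7918 tested genes: its log2 fold change, LPS over vehicle, with Ctbp1 siRNA (vertical axis) against that with control siRNA (left) or Ctbp2 siRNA (right), with a line of equality. Red points are the genes of smallest p in each direction, of which Rps12 was called and the others, Ifit2 and Rnd1 included, were not.

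The size of the response was also read per library, over genes chosen in other libraries. For the 575 genes at least 2-fold higher with LPS in Ctbp2 siRNA cells, the median log2 response was 1.92, 1.87 and 1.89 in the Ctbp1 siRNA libraries and 1.86, 1.93 and 1.74 in the control siRNA libraries. For the 871 genes at least 2-fold lower it was −1.29, −1.28 and −1.23 with Ctbp1 siRNA and −1.40, −1.41 and −1.13 with control siRNA. In both sets the control siRNA library of replicate 4 was the smallest response, and without it the Ctbp1 siRNA responses of the lower set were all smaller than those of control siRNA. These medians rest on TPM and were not taken with median-of-ratios scaling, and differences this small may depend on it. Of the 1262 genes at least 2-fold changed with Ctbp1 siRNA, 1188 were so in the same direction with control siRNA, which is 94.1% of the Ctbp1 siRNA genes and 89.1% of the 1333 control siRNA genes. With Ctbp2 siRNA 1204 were shared, 95.4% of the 1262 and 83.3% of 1446. Across tested genes, which are not independent replicates, the responses correlated at 0.975 with control siRNA and 0.978 with Ctbp2 siRNA.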

How the data were processed

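PolyA RNA was sequenced from unstranded TruSeq libraries on Illumina NovaSeq instruments, per the labels' protocols, so a gene and an antisense partner cannot be told apart. The deposited values are TPM, which the authors made with Salmon against mm39 and scaled at gene level, per the file headers. The submitters' processing notes also name DESeq2 1.44.0. TPM keeps no depth. The authors' deposited table of p-values and log2 fold changes was used for comparison alone. Genes averaging at least 10 TPM over 18 libraries were fitted as log2(TPM + 1), with 6 group means, in limma 3.58.1 (R 4.3.3; lmFit, and eBayes with trend and robust estimation), and p-values were adjusted over all tested genes by Benjamini-Hochberg. The fit was tested on simulated data. Titles gave the groups and replicate numbers. Alternatives were another pseudocount (0.1), other filters, 2 median-of-ratios scalings, fits of the compared samples alone, eBayes without trend, a replicate block and leaving out each library. Genes were named when they were list members, among the 15 largest changes in each direction with at least 50 TPM and no overlap, among the 10 most abundant, or among the differences of smallest p. Some genes that this rule names are not reported here. Members and lists were chosen with earlier results of these data known. Promoters came from RefSeq tables of GRCm38.p6, used for sequence only. Python 3.11.15 made the summaries.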

Additional observations from a re-analysis of the deposited data

Results flagged for a closer look

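The LPS response of Rps12 differed between Ctbp1 siRNA and control siRNA by 0.4499 log2 units (SE 0.068, limma adjusted p = 0.0412), the single gene past the threshold among 7918. In Ctbp1 siRNA cells Rps12 had 931, 952 and 894 TPM with LPS, against 972, 919.6 and 968 TPM with vehicle, with overlapping groups, and in control siRNA cells the means were 769.6 ± 30.9 TPM with LPS and 1083 ± 35.7 TPM with vehicle (SD, n = 3 each). Its close copies in the genome may share reads with it, and their part in the difference was not tested.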

How the results depend on the processing

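The counts of calls moved with the filter and the scaling. With a filter of at least 1 TPM, 6205 genes were called lower and 1386 of them 2-fold lower, and with no filter 6795 and 1411. Median-of-ratios scaling over all genes above 0, chosen after seeing the data, gave 3499 higher and 2218 lower, with 405 at least 2-fold lower. The authors' deposited table called 4407 genes higher, with 1452 at least 2-fold higher and 1542 at least 2-fold lower, over 16739 genes. More genes were tested under the looser filters and in that table. Leaving out each library in turn gave 1817 to 1871 genes called higher, 3833 to 3941 lower, 548 to 568 at least 2-fold higher and 687 to 738 at least 2-fold lower. The fold change of Ctbp1 changed sign with median-of-ratios scaling, to 0.0104, and to 0.119 with that scaling over all genes above 0. With the same 2 scalings Irf9 lay at 0.127 and 0.235, Lyz2 at 0.118 and 0.228 and Tgfb1 at 0.144 and 0.254, and with the second Oas2 lay at 0.0138, Tlr7 at 0.0415 and Tnfrsf1a at 0.0744, each against a value below 0 on TPM. Genes called as different from the control siRNA response numbered 0 with a filter of 1 TPM, 2 with no filter, 0 with either median-of-ratios scaling, 0 with the simpler eBayes and 0 to 9 over single libraries left out, the 9 without control siRNA LPS replicate 4. Against the Ctbp2 siRNA response there were 4 with no filter, 12 without control siRNA LPS replicate 4 in the shared fit, and 0 to 0 when a library of that comparison was left out. The 2 called against control siRNA with no filter were a pseudogene and a predicted gene, and Rps12 was not among them. Both were also among the 4 called against Ctbp2 siRNA with no filter. Lyz2, which was not called, ran from −0.129 to 0.0501 when single libraries were left out. The cause of these shifts was not tested. Same-numbered LPS and vehicle libraries with Ctbp1 siRNA had deviations that correlated at −0.053, −0.0048 and 0.081, so the numbers were not taken as pairs. Of the other pairs of groups in the shared fit, 2 had every same-numbered correlation over 0.1: Ctbp1 siRNA vehicle with Ctbp2 siRNA LPS, at 0.193, 0.274 and 0.312, and control siRNA LPS with Ctbp2 siRNA LPS, at 0.103, 0.111 and 0.191. Further pairs had all of them above 0, such as control siRNA LPS with control siRNA vehicle, at 0.0963, 0.159 and 0.129. Ctbp1 siRNA vehicle with control siRNA vehicle lay at 0.278, 0.0812 and 0.148. Others were mixed, such as Ctbp2 siRNA LPS with Ctbp2 siRNA vehicle, at −0.0456, 0.124 and 0.109. With the replicate block 1976 genes were called higher and 4111 lower, 559 and 705 at least 2-fold, with 0 different from control siRNA and 0 from Ctbp2 siRNA. The sequencing depth is unknown, so what it limits cannot be given.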
